A study of Mus musculus with 12 samples.

Results

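The miR-322, miR-503, miR-351 and miR-542 hairpins lie close together on the X chromosome of the mouse, and their 8 mature arms were followed here in extracellular vesicles of blood plasma. The arms were chosen by name, both arms of each hairpin, and all 8 were found among the 1915 mouse microRNA names of the deposited count table. The samples came from male C57BL/6J mice, a common inbred strain, 8 days after bile duct ligation (BDL, 6 libraries), in which the common bile duct is tied so that bile backs up into the liver, or after a sham operation (sham, 6 libraries). No genetic change, drug or age is given in the labels. Vesicles were precipitated from plasma, so the libraries mix vesicles of many cells, and a smaller number of vesicles from a cell type cannot be told apart from less RNA per vesicle.

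A microRNA hairpin is cut out of a longer transcript and trimmed to a short duplex, from which usually 1 strand, the 5p or the 3p arm, is kept in an Argonaute protein and guides it to messenger RNAs that pair with the seed, bases 2 to 8. miR-322, the mouse counterpart of human miR-424, and miR-503 are made from a shared transcript and belong to the extended miR-15/16 family, which restrains cell cycle genes such as cyclin D1. They are known from muscle differentiation, where their 5p arms favour exit from the cell cycle. miR-351 carries the seed of miR-125, and miR-542-3p is known as a repressor of survivin, an inhibitor of cell death.

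The mature sequences below, from RefSeq on GRCm38, show which members share a target code; the seed is in capitals. RefSeq held all 8.

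mmu-miR-322-5p: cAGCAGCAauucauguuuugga
mmu-miR-503-5p: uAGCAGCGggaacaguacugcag
mmu-miR-351-5p: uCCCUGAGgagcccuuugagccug
mmu-miR-542-5p: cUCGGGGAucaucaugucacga
mmu-miR-322-3p: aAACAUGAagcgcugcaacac
mmu-miR-503-3p: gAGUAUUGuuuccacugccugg
mmu-miR-351-3p: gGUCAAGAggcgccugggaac
mmu-miR-542-3p: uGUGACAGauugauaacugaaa

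Names outside the cluster with the seed of miR-322-5p or miR-351-5p, and enough counts to be tested, are printed for comparison.

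mmu-miR-16-5p: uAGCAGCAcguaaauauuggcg
mmu-miR-15b-5p: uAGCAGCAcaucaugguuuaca
mmu-miR-195a-5p: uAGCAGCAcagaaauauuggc
mmu-miR-125a-5p: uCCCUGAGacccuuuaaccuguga
mmu-miR-125b-5p: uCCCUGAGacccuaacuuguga

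miR-322-5p has the same bases 2 to 8 as the miR-15/16 names, and miR-503-5p shares their bases 2 to 7 but not base 8. miR-351-5p has the seed of miR-125a-5p and miR-125b-5p, while none of the 3p arms shared its seed with another of the 1623 mouse names that have a RefSeq sequence, the names compared here. Outside the seed the sequences differ, and the longest stretch that any member shared with another of these names was 11 bases, between miR-542-3p and miR-101a-3p. In the Mir322 and Mir503 hairpins, printed next with both arms in capitals, the 5p arm comes first and the 3p arm lies on the other side of the loop.

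Mir322: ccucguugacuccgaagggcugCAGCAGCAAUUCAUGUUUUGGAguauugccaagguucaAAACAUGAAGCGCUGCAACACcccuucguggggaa
Mir503: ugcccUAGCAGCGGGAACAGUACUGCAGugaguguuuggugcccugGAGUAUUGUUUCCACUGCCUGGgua

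In GRCm38 coordinates (the authors' own build is not known here) Mir322 lies at chrX:53054255-53054349, Mir503 at chrX:53053984-53054054, Mir351 at chrX:53053255-53053353 and Mir542 at chrX:53049403-53049487. All 4 are on the minus strand, within 4947 bases. GENCODE M21 places none of them inside another gene; the lincRNA Gm28730 lies between Mir542 and Mir351, and 3 further hairpins of the cluster (Mir450-1, Mir450-2 and Mir450b) follow Mir542.

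Levels are given as CPM, counts divided by library size and put on the usual per-library scale, with library sizes adjusted by the trimmed mean of M-values (TMM). Totals ran from 121003 to 3506914 counts per library. BDL replicate 4 was the shallowest, and there a count of 0 allows 3 counts, or 24.8 CPM before the TMM adjustment. The sample codes end in 24 or 26, of unstated meaning, with 3 libraries of each suffix in each group, and the 4 shallowest libraries (121003 to 666310 counts) were the BDL libraries with suffix 26 and sham replicate 6. The first digit of the code is shared by 2 libraries, and nothing says that each library is a separate animal, so p-values measure the spread between libraries, which may be technical. The labels also carry a protocol field that reads bile duct ligation for sham samples, which were taken as sham from their titles and treatment labels. A tissue label names liver although plasma vesicles were sequenced. In sham the liver name miR-122-5p had a mean of 9353 CPM and the red cell name miR-486a-5p 392088 CPM. The name miR-486b-5p had the same mean and SD as miR-486a-5p in each group. The same reads may thus be counted under both names and enter the library totals under each, which was not tested.

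The 8 arms together took 0.0251 to 0.0681% of the counts in sham libraries and 0.0418 to 0.141% in BDL libraries. Most of this came from miR-322-3p, miR-503-3p, miR-351-5p and, in a few libraries, miR-542-3p. miR-322-3p was the most abundant member and ranked 94 of the 1915 names by mean CPM and miR-503-3p ranked 109. At the other end, miR-322-5p ranked 641 and miR-542-5p 1100. Since all arms are 21 to 24 bases long, levels were compared without a length correction.

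Across the table, edgeR's quasi-likelihood test called 24.6% of the 341 names past the count filter higher in BDL and 18.2% lower, at an adjusted p under 0.05. Of the 8 arms, 6 passed the filter, and of these 3 rose (miR-351-3p, miR-322-3p and miR-503-3p), 1 fell (miR-503-5p) and 2 were not called (miR-351-5p and miR-542-3p). Their median log2 fold change was 0.77, against 0.03 over the 341 names. With 6 arms tested, these counts are a description of the cluster and set it apart from no other group. All 3 arms that rose were 3p arms, in a table where 42 of 144 tested 3p names and 26 of 143 tested 5p names were higher.

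**Figure D1:**
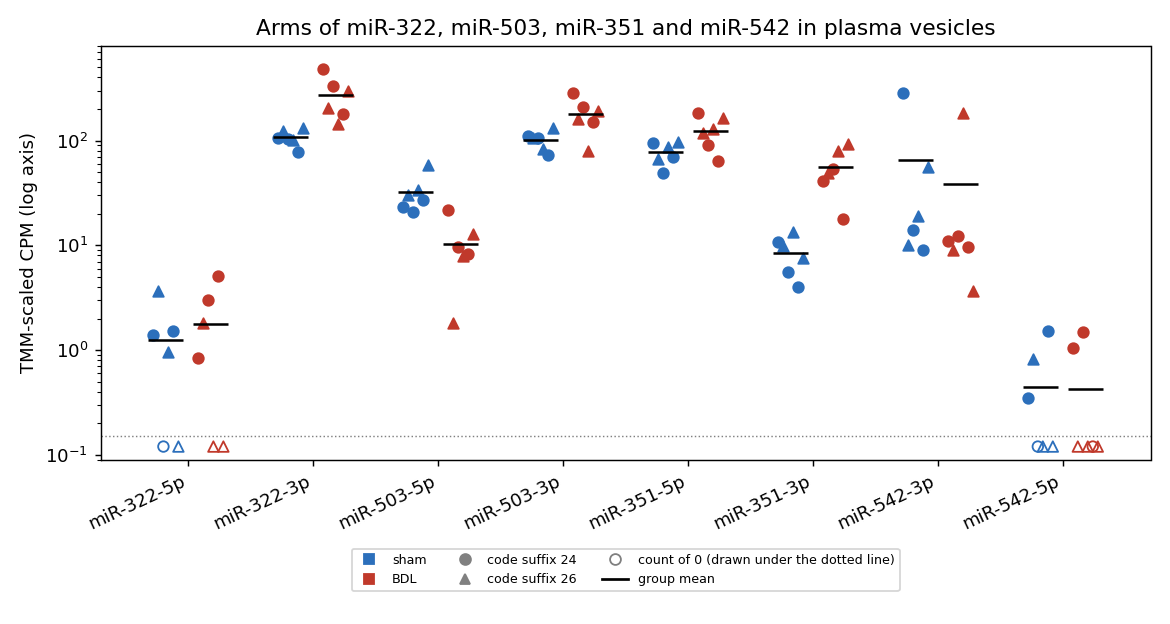
TMM-scaled CPM on a log axis for each arm in each of the 6 sham (blue) and 6 BDL (red) libraries; circles are code suffix 24, triangles suffix 26, open symbols counts of 0 and black lines group means. For miR-351-3p and miR-322-3p every BDL library lies above every sham library, as for 11.7% of the tested names. miR-542-3p has 1 library far above the rest in each group.

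miR-351-3p, the minor arm of its hairpin, showed the largest change of the tested members. It had 4.03, 8.69 and 13.4 CPM (lowest, median and highest) in sham and 17.9, 51.2 and 91.8 CPM in BDL. Every BDL library was above every sham library, as was the case for 11.7% of the tested names. The log2 fold change came to 2.64 ± 0.42 (SE), a 6.22-fold rise (edgeR adjusted p = 1.83e-04). Within suffix 24 it was 2.47 ± 0.52 (adjusted p = 0.00476) and within suffix 26 it was 2.76 ± 0.51 (adjusted p = 0.00104). The call held in all 23 other settings.

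miR-351-5p, the arm with the miR-125 seed, was not called. Its levels were 48.8, 78.2 and 96.0 CPM in sham (lowest, median and highest) and 63.8, 123 and 184 CPM in BDL. The groups overlapped, with 4 of 6 BDL libraries above every sham library. The log2 fold change was 0.69 ± 0.31 (edgeR adjusted p = 0.0799), and its direction was upward in all 23 other settings without passing the threshold in any.

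miR-322-3p, which has the seed AACAUGA and not that of the miR-15/16 family, also rose. It had 78.1, 105 and 131 CPM in sham and 144, 253 and 484 CPM in BDL (lowest, median and highest). The groups did not overlap, as was the case, with BDL higher, for 11.7% of the tested names. BDL replicate 4, at 144 CPM on a count of 18, lay close to the highest sham library. The log2 fold change was 1.37 ± 0.31 (edgeR adjusted p = 0.00196), or 2.59-fold. It was 1.82 ± 0.36 within suffix 24 (adjusted p = 0.00321) and 0.85 ± 0.42 within suffix 26, where the call was lost (adjusted p = 0.119). The difference between the suffixes, tested as an interaction, was -0.90 ± 0.54 (adjusted p = 0.34).

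Its partner miR-322-5p, the arm that carries the miR-15/16 seed, was close to the detection limit. In all 6 sham libraries together it had 17 counts, between 0 and 9 per library, against 1104 counts of miR-322-3p. In BDL the sums were 21 counts, between 0 and 8 per library, against 3791. It was absent from 2 libraries of each group and did not pass the count filter, so a difference was not detectable at this depth. Without the filter its log2 fold change was 0.49 ± 0.83 (adjusted p = 0.76, 1731 names tested).

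The arms of miR-503 moved apart. miR-503-3p had 73.6, 106 and 131 CPM in sham and 79.9, 176 and 287 CPM in BDL (lowest, median and highest). All BDL libraries but replicate 4 exceeded the whole sham group. The log2 fold change was 0.85 ± 0.30 (edgeR adjusted p = 0.0284), or 1.8-fold. This call is close to the threshold: it was lost when BDL replicate 1, 2, 3 or 5 or any 1 sham library was left out (log2 fold change 0.60 to 0.85 there, with adjusted p of 0.0511 to 0.112), with DESeq2 size factors (adjusted p = 0.0545), with no count filter (adjusted p = 0.19) and within suffix 26 (0.44 ± 0.44, adjusted p = 0.439), while within suffix 24 it was 1.19 ± 0.32 (adjusted p = 0.0157).

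miR-503-5p, which differs from the miR-15/16 seed at its last base, was lower in BDL. It had 20.9, 28.9 and 57.9 CPM in sham and 1.80, 9.01 and 21.6 CPM in BDL (lowest, median and highest). In 5 of 6 BDL libraries the level was below every sham library, and BDL replicate 1 overlapped the lowest sham library. Groups that did not overlap, with BDL lower, made up 9.38% of the tested names, and this arm was not among them. Its log2 fold change was -1.47 ± 0.43 (edgeR adjusted p = 0.011), a 2.78-fold fall. Counts were small in places, with 1 count each in BDL replicates 2 and 4. The fall was -2.45 ± 0.70 within suffix 26 (adjusted p = 0.0126), and the value was -0.78 ± 0.43 within suffix 24, where the call was lost (adjusted p = 0.192). The difference between suffixes was -1.62 ± 0.83 (interaction adjusted p = 0.273).

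Within suffix 24, 18.4% of 403 tested names were higher and 12.9% lower, and within suffix 26, 20.4% of 265 were higher and 18.1% lower. Against this, 3 of the 6 arms were called higher in suffix 24 (miR-322-3p, miR-503-3p and miR-351-3p) and 1, miR-542-3p, lower. For miR-542-3p, sham replicate 1 had 286 CPM, while the other sham libraries with suffix 24 had 13.9 and 9.07 CPM, within or near the 9.57 to 12.3 CPM of the BDL libraries. In suffix 26, where miR-542-3p did not pass the filter, 1 arm (miR-351-3p) was called higher and 1 (miR-503-5p) lower. For none of the 6 arms did the difference between suffixes pass the threshold (adjusted p of 0.184 to 0.952).

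**Figure D2:**
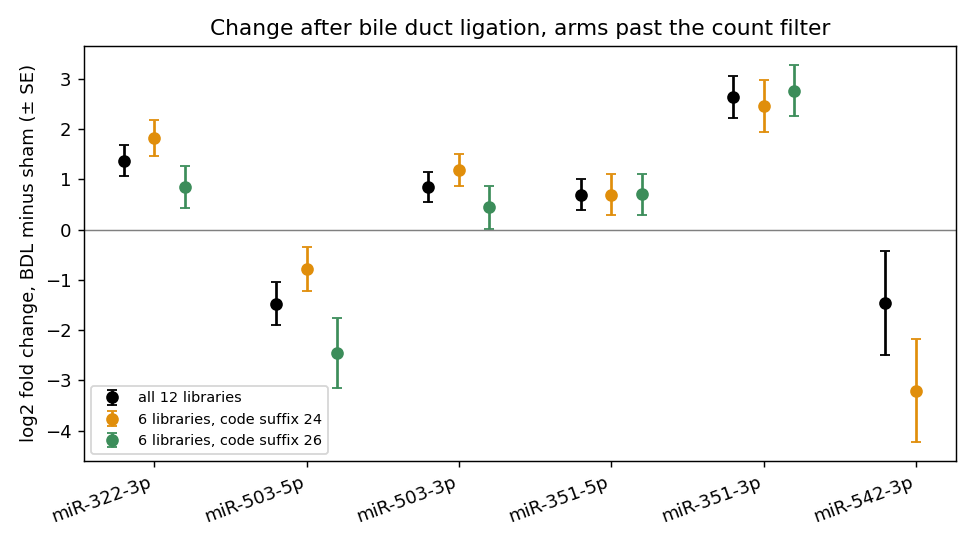
Log2 fold change (BDL minus sham, bars are SE) of the 6 arms past the count filter, in all 12 libraries (black) and in the 6 libraries with code suffix 24 (orange) or 26 (green). miR-351-3p is near 2.5 in each set, while miR-503-5p is -0.78 in suffix 24 and -2.45 in suffix 26; miR-542-3p was not tested in suffix 26.

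The arm ratio compares both arms of a hairpin inside a library and needs no scaling between libraries. For miR-503 the 5p arm made up 16.4 to 30.6% of the hairpin's counts in sham libraries and 1.11 to 9.09% in BDL libraries, so the groups did not overlap. Of the 63 hairpins whose arms were both tested, 22.2% likewise had every BDL ratio below every sham ratio, and 4.76% had every BDL ratio above, so non-overlap by itself is not particular to miR-503. Pooled over libraries, the 5p share was 22.2% (95% Wilson interval 20.0 to 24.5) in sham and 6.00% (5.14 to 6.99) in BDL, intervals that cover counting error only. Most of the pooled BDL counts came from BDL replicate 1, with 104 of 152 for the 5p arm and 1378 of 2382 for the 3p arm. The mean log2 ratio of 5p to 3p was -1.71 ± 0.50 in sham and -4.13 ± 1.02 in BDL (SD, n = 6 each). The ratio thus fell by 2.42 on the log2 scale, in 6 of 6 BDL libraries below every sham library (exact two-sided permutation p = 0.00216; 2 ratios were tested). That p is the smallest that regrouping 6 against 6 libraries can give.

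For miR-351, in which 5p is the major arm, the 5p share was 86.7 to 94.5% in sham libraries and 61.5 to 81.7% in BDL libraries. Here too the groups did not overlap, as in 22.2% of the 63 hairpins. The mean log2 ratio was 3.19 ± 0.51 in sham and 1.24 ± 0.62 in BDL (SD, n = 6 each), a difference of -1.94 (exact two-sided permutation p = 0.00216). Within suffix 24 the ratio differed by -2.09 for miR-503 and by -1.82 for miR-351, and within suffix 26 by -2.76 and -2.06. With 3 libraries against 3 the exact permutation p cannot go below 0.1, and it was 0.1 for both hairpins in both suffixes.

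**Figure D3:**
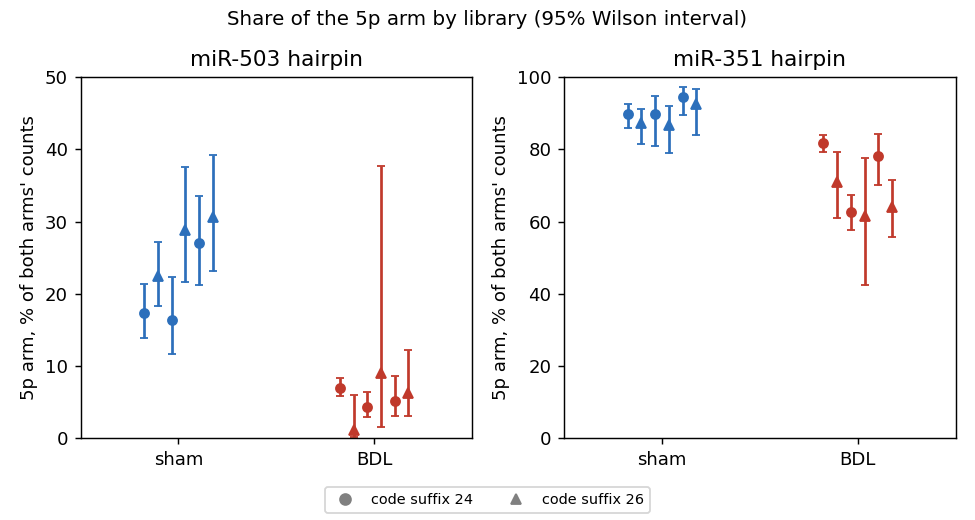
Share of the 5p arm in the counts of both arms, in percent, for the miR-503 (left) and miR-351 (right) hairpins in each sham and BDL library, with 95% Wilson intervals; circles are code suffix 24 and triangles suffix 26, and the vertical axes differ. Every BDL library lies below every sham library in both panels, and the wide interval is BDL replicate 4.

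Such a shift was not limited to this locus. Of 63 hairpins whose arms were both tested, 35 had a lower 5p to 3p ratio in BDL, with a median difference of -0.27, and ordered from the largest fall miR-503 came 5 and miR-351 came 8. In 3 of the 63 (miR-503, miR-434 and miR-143) the arms were called in opposite directions. In 2 of these, miR-503 and miR-434, the 3p arm was higher and the 5p arm lower, while miR-143 showed the reverse. For miR-322 and miR-542 the ratio was not tested, since their 5p arms did not pass the filter. The 5p arm of miR-322 took 1.52% of its hairpin's counts in sham (Wilson interval 0.949 to 2.42) and 0.551% in BDL (0.361 to 0.841), pooled over libraries. By library the shares overlapped, at 0 to 2.88% in sham and 0 to 2.75% in BDL, and BDL replicate 1 supplied 2324 of the 3791 BDL counts of miR-322-3p.

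**Figure D4:**
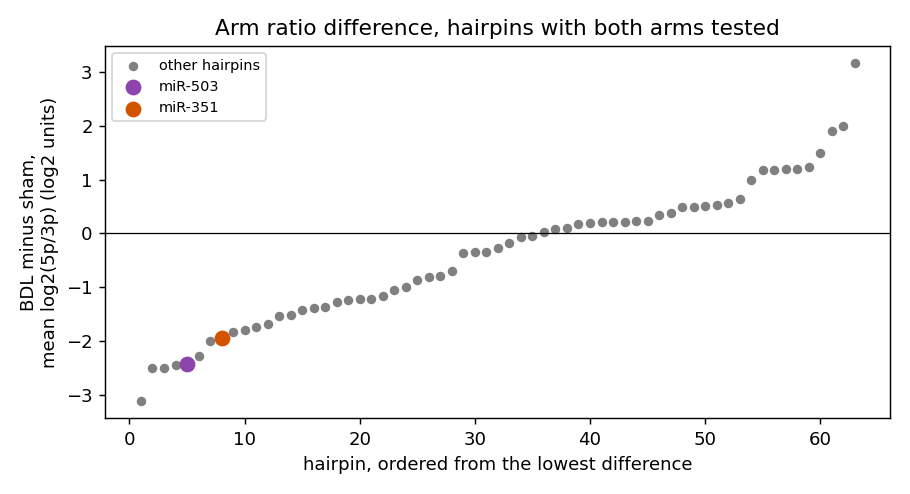
Difference between BDL and sham in the mean log2 ratio of 5p to 3p counts, for the 63 hairpins with both arms tested, ordered from the lowest. miR-503 (-2.42, purple) and miR-351 (-1.94, orange) are among the lowest values, with grey points for other hairpins on both sides of 0.

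miR-542-3p varied widely between libraries of both groups. It had 9.07, 16.6 and 286 CPM in sham and 3.67, 10.3 and 184 CPM in BDL (lowest, median and highest). Sham replicate 1 held 827 counts, while the other sham libraries held 18 to 37, and BDL replicate 4 held 23 counts in a library of 121003. Its log2 fold change of -1.46 ± 1.04 was not called (edgeR adjusted p = 0.279). Without sham replicate 1 it was 0.24 (adjusted p = 0.865), and without BDL replicate 4 it was -2.84 (adjusted p = 0.015). Its partner miR-542-5p had 6 counts in sham and 9 in BDL and could not be tested.

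The other arms of the cluster, from the miR-450a and miR-450b hairpins next to Mir542, were rare, and 0 of the 5 passed the filter. miR-450a-5p had 6 to 21 counts in sham libraries, 73 in all, and 0 to 9 in BDL libraries, 17 in all. On the CPM scale these were 4.54 to 9.14 in sham and 0 to 3.67 in BDL. The groups did not overlap, with BDL lower, as in 9.38% of the 341 tested names, but miR-450a-5p itself did not pass the filter. Before TMM adjustment, a count of 0 allows 24.8 CPM in BDL replicate 4, above the highest sham value. In BDL replicate 2 a count of 0 allows 4.81 CPM, above the lowest sham value. Without the count filter the log2 fold change of miR-450a-5p was -2.08 ± 0.71 (edgeR adjusted p = 0.0444). In that setting 55 of 1731 names were called lower. miR-450a-1-3p, miR-450a-2-3p, miR-450b-5p and miR-450b-3p had at most 23 counts per group.

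Names that share a seed with a member gave the level of the same target code from other loci. For the seed AGCAGCA, 3 of 9 other names were tested, of which 2 fell and 1 was not called. Over the 341 tested names 18.2% were called lower, and with 3 names tested these counts are a description only. miR-16-5p, the most abundant, had a mean of 235 ± 113 CPM in sham and 53.8 ± 30.5 CPM in BDL (SD, n = 6 each), with 3 of 6 BDL libraries below every sham library. It fell by 2.06 on the log2 scale (SE 0.46, edgeR adjusted p = 0.00189). miR-15b-5p had -1.31 ± 0.48 (adjusted p = 0.0341), a call lost in 12 of 22 other settings, 7 of them single libraries left out (BDL replicates 2, 3, 5 and 6 and sham replicates 2, 4 and 5). miR-195a-5p had -1.12 ± 0.55 (adjusted p = 0.112), and it was called lower within suffix 24 (-2.02) but had -0.01 within suffix 26 (adjusted p = 0.99). The call was also made without BDL replicate 2 (-1.81), with the DESeq2 test (-1.25) and with libraries summed by first code digit (-1.63). miR-322-5p supplied 0 to 1.04% of all AGCAGCA counts in sham libraries and 0 to 4.91% in BDL libraries.

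For the seed CCCUGAG, 2 of 4 other names were tested and neither was called. miR-125a-5p had a mean of 1076 ± 294 CPM in sham and 938 ± 506 in BDL (SD, n = 6 each), with a log2 fold change of -0.21 ± 0.32 (edgeR adjusted p = 0.632). Its value was -0.88 in suffix 24, where it was called lower, and 0.35 in suffix 26. miR-125b-5p had 1118 ± 170 and 763 ± 290 CPM, with -0.55 ± 0.28 (edgeR adjusted p = 0.127). It passed the threshold with DESeq2 size factors (-0.70, adjusted p = 0.0418) and with the DESeq2 test (-0.69, adjusted p = 0.0234). miR-351-5p made up 1.94 to 4.75% of the CCCUGAG counts in sham libraries and 3.73 to 14.7% in BDL libraries, with overlap.

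Over the 12 libraries, the names outside the cluster whose log2 CPM ran most closely with miR-322-3p were miR-192-5p (Spearman rho = 0.937), miR-219a-1-3p (0.881), miR-501-3p (0.874), miR-214-3p (0.853) and miR-148a-5p (0.853), all of them higher in BDL. The median rho over the other tested names was -0.014. Among the members rho was 0.874 with miR-503-3p, 0.769 with miR-351-3p, 0.615 with miR-351-5p, -0.301 with miR-542-3p and -0.552 with miR-503-5p. These values are descriptions over 12 libraries that share their group difference. With each group's mean taken off, the closest outside names were miR-146a-5p (0.944), let-7c-5p (0.902), miR-100-5p (0.825), let-7f-1-3p (0.755) and miR-10a-5p (0.734). The median rho over the other tested names was then 0.0839. Among the members rho was 0.937 with miR-503-3p, 0.685 with miR-503-5p, 0.448 with miR-351-5p, 0.0979 with miR-351-3p and 0.049 with miR-542-3p.

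Markers of several cell types and base composition moved with the groups as well. The marker calls below stand beside 24.6% of the 341 tested names called higher and 18.2% called lower. The summed hepatocyte names (miR-122-5p, miR-122-3p, miR-192-5p and miR-194-5p; 2 of 3 tested were higher) ran from 4013 to 25209 CPM in sham and from 74747 to 327680 in BDL. The striated muscle names (3 of 4 tested lower) ran from 1153 to 2137 CPM in sham and from 639 to 1743 in BDL. The leukocyte names (3 of 5 lower) ran from 2805 to 6421 CPM in sham and from 563 to 2214 in BDL, and the endothelial and platelet names (2 of 2 lower) from 3151 to 8883 and from 631 to 2619. The red cell names (1 of 3 lower) ran from 355875 to 552120 CPM in sham and from 124020 to 377397 in BDL. The mesenchymal names split, with 2 of 5 higher and 2 lower, and no marker was at 0 in all libraries. Across the 290 tested names with a RefSeq sequence, the log2 fold change rose with GC percent (Spearman rho = 0.476, across names, which are not replicates); GC was 66.7% in miR-351-3p, 62.5% in miR-351-5p, 56.5% in miR-503-5p, 47.6% in miR-322-3p and 31.8% in miR-542-3p. The part of these cell types and of GC content in the members' changes was not tested.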

How the data were processed

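Small RNA libraries from plasma vesicles were sequenced. The authors deposited a table of whole-number read counts per microRNA name, with no normalisation that its values show; the submitters' processing notes name cutadapt and STAR, with versions, counting tool, build and annotation not given in the sources used here. Library preparation used PCR and no molecular identifiers are described, so intervals cover counting error only. The 67 names of other species were left out of library sizes and tests. Groups came from the sample titles, and the table's column names matched the codes in those titles. No 2 libraries of a group agreed within sampling noise.

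Tests used edgeR 4.0.16 under R 4.3.3 (quasi-likelihood F test, TMM scaling, filter on low counts by group, 6 BDL against 6 sham libraries), with Benjamini-Hochberg adjustment over the 341 names tested; an adjusted p under 0.05 counted as called. Each SE was taken from the log2 fold change and F (their ratio, with F under a square root). log2 CPM has a prior count of 2. Arm ratios are log2((5p + 0.5)/(3p + 0.5)) of counts, tested by exact permutation where both arms passed the filter. The fit was checked on simulated counts, in which libraries were drawn independently and with no suffix difference. The difference between code suffixes was an interaction term. The other settings were no count filter, a minimum of 10 counts in 6 libraries, scaling by DESeq2 size factors or by total counts alone, DESeq2 1.42.0, limma-voom (limma 3.58.1), a replicate block on the sample number, the code suffix as a covariate, each suffix alone, libraries summed by first code digit, and leaving out each library. Named microRNAs were all members, the rest of the cluster, tested names with a member's seed, the 5 names closest to miR-322-3p, and cell type markers. The members and lists were chosen with earlier results of these data known. Positions and sequences are from GENCODE M21 and RefSeq, both GRCm38.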

Additional observations from a re-analysis of the deposited data

Results flagged for a closer look

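In the BDL group, replicate 4 stood apart from the other libraries for miR-542-3p, with a log2 CPM of 7.53; its distance to the next library was 0.718 of the group's range, above Dixon's 95% limit for 6 samples. This was 23 counts in the shallowest library. Of 20 groups of 6 values examined, 1 held such a library, and chance gives about 1 in 20. In the sham group, replicate 1, with 827 counts of miR-542-3p, did not pass the same limit.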

How the results depend on the processing

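The direction of miR-322-3p, miR-503-5p, miR-503-3p, miR-351-5p and miR-351-3p and of both arm ratios was the same in each of the alternatives run. With code suffix 26 alone, fewer names were tested (265) and 54 were higher; miR-322-3p (0.85) and miR-503-3p (0.44) were not called there, and with suffix 24 alone miR-503-5p (-0.78) was not called. miR-503-3p was also not called with DESeq2 size factors (0.71) or with no count filter (0.83), and ranged from 0.60 to 0.92 when single libraries were left out. miR-542-3p was called with no count filter (-1.75), with suffix 24 alone (-3.21) and with libraries summed by first code digit (-2.35), and ranged from -2.84 without BDL replicate 4 to 0.24 without sham replicate 1, which turned its direction. miR-125a-5p turned to 0.35 in suffix 26. The cause of these changes was not tested. The arm ratio of miR-503 differed by -2.09, -2.76 and -2.34, and that of miR-351 by -1.82, -2.06 and -1.88, in suffix 24, in suffix 26 and with summed libraries, where 3 against 3 cannot pass the threshold (exact permutation p = 0.1). With the replicate block the 4 calls among the members were the same (miR-503-3p 0.78, adjusted p = 0.0494). Same-numbered libraries did not deviate together throughout (correlations of -0.0886 to 0.311), so the numbers were not taken as pairs. Depth limits miR-322-5p, miR-542-5p and the miR-450 arms.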

Other observations

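Within the counts of the 8 arms, the make-up of the libraries differed. miR-322-3p was 16.6 to 35.3% of the members' counts in sham libraries and 23.1 to 46.9% in BDL libraries, with overlap. miR-503-5p was 3.67 to 12.1% of the members' counts in sham libraries and 0.329 to 2.10% in BDL libraries, and miR-351-3p was 1.53 to 3.97% in sham and 4.00 to 12.8% in BDL. miR-503-3p took similar ranges, 17.5 to 35.6% in sham and 12.8 to 34.6% in BDL, as did miR-351-5p, 15.0 to 26.1% and 12.6 to 21.7%. miR-542-3p was 45.2% of the members' counts in sham replicate 1 and 29.5% in BDL replicate 4, and 0.481 to 11.7% in the other 10 libraries. No test was made of these shares.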
